A study of Homo sapiens with 9 samples.

Results

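The collagen chain genes of A549, a human lung adenocarcinoma line of epithelial origin, were followed through a week of inhibition of protein arginine methyltransferases (PRMTs). The set holds every gene whose symbol in the authors' deposited FPKM tables is COL, a number, A and a number, which gave 44 genes among the 51796 gene identifiers of the count table. All 44 were found there by identifier, and by chain type they are 11 fibrillar chains, 6 type IV chains of basement membranes and 27 other chains. Of the 44 genes, 33 passed a filter on low counts and were tested, 9 fibrillar, all 6 type IV and 18 other, and the 11 that failed it are given as counts. The first group was given MS023, which blocks type I PRMTs, the enzymes that make asymmetric dimethylarginine. The second was given GSK591, which blocks PRMT5, the chief source of symmetric dimethylarginine. The control group received DMSO, the solvent. Both inhibitors were used at 1 µM for 7 days. Plates for both inhibitors were seeded at 0.4 and control plates at 0.2 (in units of 1e5 cells), so seeding and inhibitor cannot be told apart in either comparison with DMSO. Each group had 3 libraries of total RNA freed of ribosomal RNA, and the labels do not say that these came from separate cultures, so p-values reflect only how these libraries vary. All cells are of 1 tumour line.

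Most collagens are secreted proteins, while some are transmembrane. They are built from chains with long runs of glycine-containing repeats, and chains of like or unlike genes wind into a helix of fixed make-up. Fibrillar collagens pack into the cables that give tissues their strength, type IV chains form the sheet-like net under epithelia, and other types link, anchor or decorate these. Lung epithelial cells make basement membrane collagens together with laminins, while most fibrillar collagen of the lung is known to come from fibroblasts.

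The libraries held 31398075 to 51244525 counts, and collagen chain genes took between 0.153 and 0.224% of them. Levels are given as CPM (counts scaled to library size) after TMM scaling, changes as log2 values ± standard error from an edgeR quasi-likelihood fit to all 9 libraries, and a gene is called at a Benjamini-Hochberg adjusted p under 0.05 over the 18292 genes tested. Epithelial markers were present: of KRT7, KRT8, KRT18, CDH1 and EPCAM, 1 was called higher and 4 lower in MS023 and 2 higher and 1 lower in GSK591, and their sum was 5099 to 5276 CPM of the library total in MS023, 7587 to 7988 CPM in GSK591 and 6231 to 6309 CPM in DMSO. Of 6 fibroblast and pericyte markers 3 were tested, and all 3 (THY1, LUM and PDGFRA) were called higher in GSK591, while DCN had 1 count and FAP 2 counts over all 9 libraries and PDGFRB 7, 31 and 10 counts in MS023, GSK591 and DMSO. Their summed level, counts near 0 included, was 6.24 to 7.20 CPM in MS023, 18.6 to 19.4 CPM in GSK591 and 6.76 to 6.91 CPM in DMSO. CDH5 was the 1 tested of 3 endothelial markers found, and was called higher in both inhibitor groups, with 55 counts in MS023, 23 in GSK591 and 8 in DMSO, while VWF had 3, 10 and 9 counts and KDR 12, 0 and 3 in these groups. PECAM1 was also chosen as an endothelial marker but has no value here. Of the CDH5 means of 0.417, 0.195 and 0.0641 CPM, only that of MS023 lay above the filter cutoff of 0.236 CPM. CD14 was the 1 tested of 4 leukocyte markers and was called lower in MS023, while PTPRC had 2 counts in each group and CD3E 1 count in all. Of 6 alveolar type II markers 3 were tested, ABCA3 was called lower in MS023 and higher in GSK591, and SFTPB (54, 48 and 35 counts in MS023, GSK591 and DMSO) and SFTPD (19, 37 and 19) were not called. NKX2-1 had 23, 3 and 3 counts, SFTPC 13, 15 and 14 and SFTPA1 2, 2 and 1 in the same groups. GSK591 replicate 3 stood apart by its mitochondrial rRNA, at 932.5 CPM against 0.410 to 20.7 CPM in the other libraries. Without that library 17 members were called higher and 8 lower in GSK591, and COL6A3 was the call lost. Over all 18611 genes tested in that fit, 5378 were called higher and 5392 lower.

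Collagen RNA differed between the 2 inhibitors and from DMSO. In MS023 the type V chain COL5A1 and the type IV chains COL4A5 and COL4A6 were 2.03-fold, 1.94-fold and 2.88-fold lower than in DMSO, whereas COL1A1 was 2.14-fold higher (n = 3 libraries a group). In GSK591 the anchoring fibril chain COL7A1 was 3.63-fold and the fibril-associated chain COL16A1 4.99-fold higher, and COL4A1, COL4A2, COL6A1 and COL12A1 rose as well, while COL5A2, COL1A1 and COL3A1 fell. The 3 tested fibroblast markers above, THY1 most of all, were higher in the same GSK591 libraries, and their part in these increases was not tested. Of 33 members tested, 8 (24.2%) were called higher and 17 (51.5%) lower in MS023, against 25.1% and 25.9% of all genes (51.0% called in all). In GSK591 17 members (51.5%) were called higher and 9 (27.3%) lower, against 30.1% and 32.4% of all genes (62.6% in all). Set directly against GSK591, MS023 had 9 members higher and 20 lower (60.6%), against 33.6% and 31.7% of all genes (65.4% in all). Both comparisons with DMSO use the same control libraries. In limma on log2 of FPKM plus 1, with a minimum of 1 FPKM in 3 libraries, 13593 genes were tested, against 18292 in counts. The FPKM calls split into 2820 higher and 5218 lower in GSK591, against 5510 and 5933 in counts. For MS023 against GSK591 they split into 5262 higher and 3080 lower, where counts gave 6151 and 5804. Without that filter, over 26940 genes, FPKM gave 3919 higher and 5157 lower in GSK591. For MS023 against GSK591 it then gave 5555 higher and 4180 lower. The median log2 change of the 33 members was -0.20 in MS023 and 0.41 in GSK591, beside -0.003 and 0.006 over all genes. The libraries of MS023 and DMSO did not overlap in 29 of 33 members (57.5% of all genes), those of GSK591 and DMSO in 26 (65.6%) and those of MS023 and GSK591 in 29 (70.5%). These are descriptions of the members that passed the filter, since 5 of them (COL13A1, COL20A1, COL28A1, COL6A3 and COL9A2) cleared it in only 1 or 2 of the groups. COL13A1 cleared it in GSK591 alone and COL6A3 in DMSO alone, in each case the group where it was highest. COL20A1 did not clear it in MS023, nor COL28A1 and COL9A2 in DMSO, where each was lowest. RNA was taken from bulk cultures, in which fewer cells of a kind and less RNA per cell cannot be told apart.

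**Figure D1:**
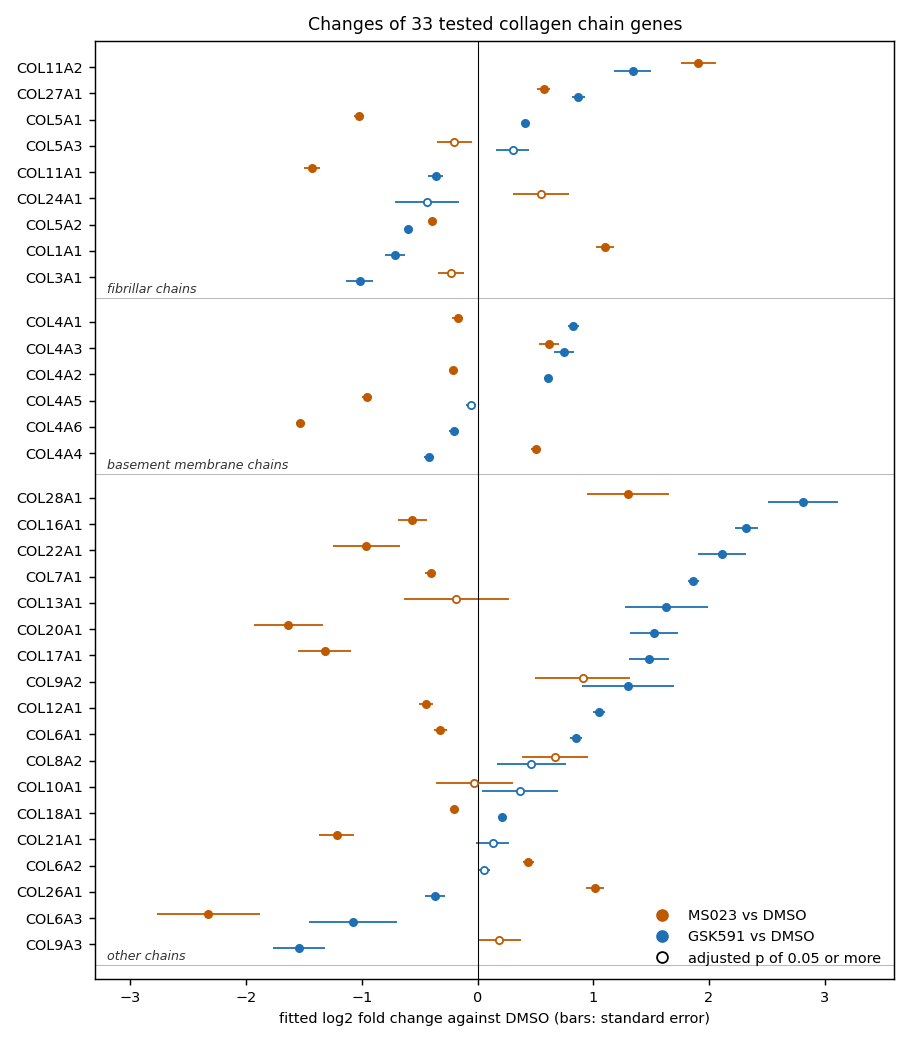
Fitted log2 fold changes of the 33 tested collagen chain genes in MS023 (orange) and GSK591 (blue) against DMSO, with bars of 1 standard error and open symbols where the adjusted p was 0.05 or more. The fibrillar and type IV groups hold changes in both directions. Among the 18 other chains, 11 were called higher and 3 lower in GSK591, against 30.1% and 32.4% of all genes. In MS023 3 of these 18 were called higher and 10 lower, against 25.1% and 25.9% of all genes. These counts include members that cleared the low-count filter in only 1 or 2 groups.

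Levels of different chains were compared in the authors' FPKM, which divide by gene length. COL5A2 led, with 86.2, 79.3 and 76.2 FPKM in the MS023 libraries, 67.8, 69.1 and 64.9 FPKM in the GSK591 libraries, and 98.4, 109 and 107 FPKM in the DMSO libraries. Next came COL18A1 with 37.4, 38.2 and 39.4 FPKM in the MS023 libraries, 48.1, 48.7 and 47.2 FPKM in the GSK591 libraries, and 42.4, 43.1 and 42.6 FPKM in the DMSO libraries. COL5A2 alone took 39.2 ± 1.47% of the summed FPKM of all 44 members in MS023, 25.1 ± 0.385% in GSK591 and 41.5 ± 0.431% in DMSO (SD, n = 3 each). COL4A2, COL7A1, COL4A5, COL4A6, COL4A1, COL5A1, COL6A2, COL6A1 and COL27A1 followed in the order of their mean over 9 libraries, from 22.7 down to 5.84 FPKM. The order of COL7A1 differed by group, with 7.53, 7.22 and 7.55 FPKM in the MS023 libraries, 28.9, 33.3 and 29.4 FPKM in the GSK591 libraries, and 7.31, 10.6 and 11.0 FPKM in the DMSO libraries. In GSK591 COL7A1 thus reached the level of COL4A2, at 30.3 ± 1.65 FPKM, with ranges that overlap. Summed over fibrillar chains, FPKM was 98.9 ± 4.99 in MS023, 88.9 ± 3.42 in GSK591 and 122 ± 5.61 in DMSO. The 6 type IV chains summed to 42.2 ± 1.80, 75.9 ± 3.93 and 60.7 ± 3.14 FPKM, and the 27 other chains to 64.3 ± 1.51, 103 ± 5.52 and 69.1 ± 2.42 FPKM in the same order of groups. The fibrillar sum was lowest in GSK591, whereas the sums of type IV and other chains were highest there. Most of the fibrillar sum was COL5A2, with means of 80.6, 67.2 and 104.7 FPKM in MS023, GSK591 and DMSO, so its order follows that gene. Among the remaining fibrillar chains, COL5A1 and COL27A1 were highest in GSK591, and COL1A1 and COL3A1 lowest.

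**Figure D2:**
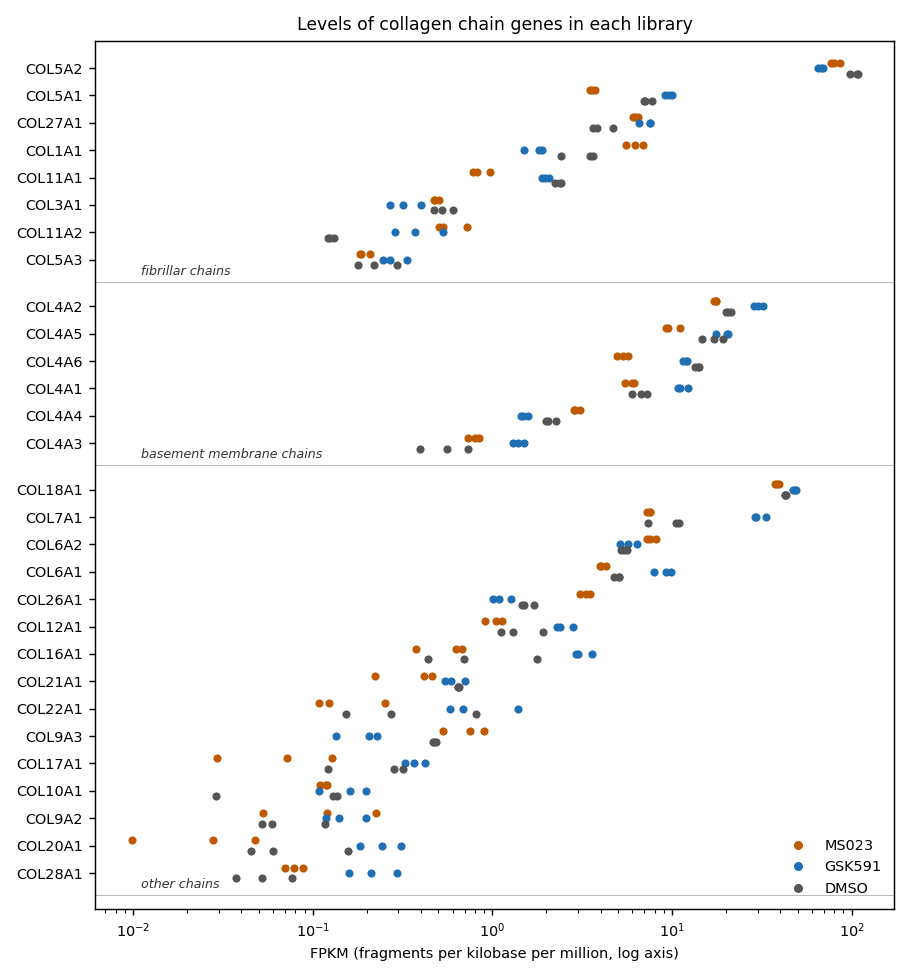
FPKM (fragments per length of gene and size of library, log axis) of 29 tested collagen chain genes with a mean of at least 0.1 FPKM, 1 point per library in MS023 (orange), GSK591 (blue) and DMSO (grey). COL5A2 lies far above the other fibrillar chains, at 64.9 to 108.5 FPKM, and COL7A1 in GSK591 lies clear of both other groups.

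Type IV chains form the net of basement membranes. COL4A1 and COL4A2 make the widespread form, COL4A3, COL4A4 and COL4A5 the form known from kidney glomeruli and lung alveoli, and COL4A5 also pairs with COL4A6. Their 6 genes lie in neighbouring pairs that start back to back. In the RefSeq starts of GRCh38.p14, those of COL4A1 and COL4A2 are 127 bases apart on chromosome 13, those of COL4A3 and COL4A4 419 bases on chromosome 2, and those of COL4A5 and the nearer of 2 COL4A6 starts 380 bases on chromosome X. These stretches are printed because both genes of a pair share them, so that members with a common upstream sequence can be compared. Capitals mark matches on either strand to GGGCGG, the core of a GC box, to CCAAT, the box of that name, or to TATAAA, the core of a TATA box, and sequences run 5′ to 3′ on the strand of the named gene. The COL4A1 and COL4A2 stretch, on the strand of COL4A2, covers all bases between the starts (chr13:110307158-110307283, plus strand). The others are the 250 bases before the start of COL4A3 (chr2:227164374-227164623, plus strand), COL4A4 (chr2:227164206-227164455, minus strand), COL4A5 (chrX:108439588-108439837, plus strand) and COL4A6 (chrX:108439459-108439708, minus strand).
COL4A1/COL4A2: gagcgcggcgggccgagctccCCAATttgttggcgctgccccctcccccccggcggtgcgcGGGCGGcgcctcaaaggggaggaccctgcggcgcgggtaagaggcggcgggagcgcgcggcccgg
COL4A3: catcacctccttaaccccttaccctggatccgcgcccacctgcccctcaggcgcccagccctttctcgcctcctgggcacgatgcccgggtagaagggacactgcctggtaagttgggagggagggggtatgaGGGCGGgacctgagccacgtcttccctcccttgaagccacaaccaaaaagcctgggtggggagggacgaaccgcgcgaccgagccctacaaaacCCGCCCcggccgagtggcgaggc
COL4A4: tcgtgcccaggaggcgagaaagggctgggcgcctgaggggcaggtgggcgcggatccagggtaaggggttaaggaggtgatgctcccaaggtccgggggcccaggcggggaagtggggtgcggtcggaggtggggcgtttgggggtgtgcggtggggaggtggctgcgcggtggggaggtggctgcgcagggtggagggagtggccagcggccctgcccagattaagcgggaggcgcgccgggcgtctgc
COL4A5: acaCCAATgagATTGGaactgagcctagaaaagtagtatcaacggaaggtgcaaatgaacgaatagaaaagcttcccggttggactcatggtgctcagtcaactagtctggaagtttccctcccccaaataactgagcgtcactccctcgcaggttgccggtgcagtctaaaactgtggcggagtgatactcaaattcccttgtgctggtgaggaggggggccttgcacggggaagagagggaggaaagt
COL4A6: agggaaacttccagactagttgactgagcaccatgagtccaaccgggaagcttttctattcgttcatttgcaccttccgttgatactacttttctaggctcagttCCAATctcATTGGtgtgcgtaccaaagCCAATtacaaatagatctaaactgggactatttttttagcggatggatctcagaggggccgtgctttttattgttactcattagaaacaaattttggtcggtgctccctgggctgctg

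The stretch between COL4A1 and COL4A2 held 1 GC box and 1 CCAAT box, that of COL4A3 held 2 GC boxes, that of COL4A4 none of the 3 motifs, that of COL4A5 2 CCAAT boxes and that of COL4A6 3 CCAAT boxes. The 2 CCAAT matches of COL4A5 also lie in the COL4A6 stretch, which overlaps it. The 2 GC boxes of COL4A3 lie between the starts of COL4A3 and COL4A4 but outside the 250 bases taken for COL4A4. Of 35116 upstream stretches of 250 bases in the RefSeq table, 42.6% held a GC box, 32.0% a CCAAT box and 10.7% a TATA box. Of the 32 members in that table, 21, 11 and 7 held them in at least 1 of their stretches. These members have 44 stretches, and a member with several starts has more chances of a match. The counts per member are therefore not set against the shares per stretch. A match is only a run of letters and was not tested for binding of any factor.

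COL4A2 (ENSG00000134871, hg19 chr13:110958159-111165374) stood at 132, 133 and 130.4 CPM in the MS023 libraries, 229, 239 and 229.6 CPM in the GSK591 libraries, and 155, 153 and 148 CPM in the DMSO libraries. The GSK591 libraries lay above all others and the MS023 libraries below. The log2 change was -0.21 ± 0.04 (edgeR adjusted p = 0.000178) in MS023 and 0.61 ± 0.04 (edgeR adjusted p = 1.61e-09) in GSK591. Its neighbour COL4A1 (ENSG00000187498, hg19 chr13:110801318-110959496) had 51.9, 53.4 and 50.9 CPM in the MS023 libraries, 100.1, 109 and 103 CPM in the GSK591 libraries, and 55.6, 62.0 and 58.2 CPM in the DMSO libraries. It moved the same way, with log2 changes of -0.17 ± 0.05 (edgeR adjusted p = 0.00573) in MS023 and 0.83 ± 0.05 (edgeR adjusted p = 9.05e-10) in GSK591. The MS023 call ended without DMSO replicate 2 (edgeR adjusted p = 0.0551) and in FPKM (limma adjusted p = 0.123). The ratio of COL4A1 to COL4A2 in FPKM was 0.353, 0.340 and 0.319 in MS023, 0.371, 0.384 and 0.377 in GSK591 and 0.294, 0.340 and 0.339 in DMSO. Every GSK591 ratio lay above every DMSO ratio, a log2 difference of 0.22 (exact permutation p = 0.1, the smallest that 3 against 3 libraries can give), and MS023 and DMSO overlapped. The 2 loci overlap by 1338 bases in the files, and the strand setting of the counts is not given, so reads there cannot be assigned with certainty.

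COL4A3 and COL4A4 also start back to back but did not move together in GSK591. COL4A4 (ENSG00000081052, hg19 chr2:227867427-228028829) had 40.4, 40.5 and 41.7 CPM in the MS023 libraries, 22.6, 21.5 and 20.9 CPM in the GSK591 libraries, and 28.6, 29.4 and 28.5 CPM in the DMSO libraries. All MS023 libraries lay above and all GSK591 libraries below the DMSO libraries, with log2 changes of 0.50 ± 0.04 (edgeR adjusted p = 1.67e-07) and -0.42 ± 0.04 (edgeR adjusted p = 8.76e-07). COL4A3 (ENSG00000169031, hg19 chr2:228029281-228179508) had 8.53, 8.09 and 8.44 CPM in the MS023 libraries, 8.11, 9.27 and 9.96 CPM in the GSK591 libraries, and 5.50, 5.12 and 5.73 CPM in the DMSO libraries. It was higher in both inhibitor groups, with log2 changes of 0.62 ± 0.09 (edgeR adjusted p = 2.90e-05) in MS023 and 0.75 ± 0.09 (edgeR adjusted p = 2.34e-06) in GSK591, and the direct difference of MS023 from GSK591 did not pass (log2 change -0.13 ± 0.08, edgeR adjusted p = 0.165). In the authors' FPKM the MS023 rise of COL4A3 lost its call (limma adjusted p = 0.0601 on log2 of FPKM plus 1) and the direct difference gained one (limma adjusted p = 0.00120), as it also did in counts without GSK591 replicate 1 (edgeR adjusted p = 0.0352). The ratio of COL4A3 to COL4A4 in FPKM was 0.260, 0.297 and 0.254 in MS023, 0.883, 0.877 and 1.03 in GSK591 and 0.280, 0.175 and 0.358 in DMSO. In GSK591 the FPKM of both chains were thus close to each other, and in the other groups COL4A4 exceeded COL4A3 in every library (exact permutation p = 0.1 for GSK591 against DMSO, the smallest possible). From the counts per kilobase of exon the ratio was 0.226, 0.467 and 0.209 in MS023, GSK591 and DMSO, so GSK591 was again highest but COL4A3 stayed below COL4A4.

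COL4A5 and COL4A6 carried the largest decreases among type IV chains, in MS023. COL4A6 (ENSG00000197565, hg19 chrX:107386780-107682727) had 36.2, 32.1 and 34.9 CPM in the MS023 libraries, 86.3, 86.9 and 85.5 CPM in the GSK591 libraries, and 101, 98.6 and 98.5 CPM in the DMSO libraries. The groups were separate, with log2 changes of -1.53 ± 0.04 (edgeR adjusted p = 1.19e-12) in MS023 and -0.20 ± 0.04 (edgeR adjusted p = 0.000473) in GSK591. COL4A5 (ENSG00000188153, hg19 chrX:107683074-107940775) had 53.1, 49.0 and 50.8 CPM in the MS023 libraries, 90.7, 97.0 and 96.6 CPM in the GSK591 libraries, and 94.9, 98.7 and 102 CPM in the DMSO libraries. It fell in MS023 (log2 change -0.95 ± 0.04, edgeR adjusted p = 2.15e-10), and its GSK591 value of -0.06 ± 0.04 (edgeR adjusted p = 0.241) did not pass, with overlapping libraries. That value changed sign in FPKM, where it read 11.1, 9.53 and 9.28 FPKM in the MS023 libraries, 20.3, 20.4 and 17.5 FPKM in the GSK591 libraries, and 14.7, 17.2 and 19.2 FPKM in the DMSO libraries. The ratio of COL4A5 to COL4A6 in FPKM was 1.95, 1.92 and 1.74 in MS023, 1.67, 1.71 and 1.52 in GSK591 and 1.10, 1.21 and 1.37 in DMSO. Both inhibitor groups lay above DMSO in this ratio (exact permutation p = 0.1 each, the smallest possible). Counts per kilobase gave 1.16, 0.860 and 0.777 in MS023, GSK591 and DMSO, with the same order but COL4A5 below COL4A6 in GSK591 and DMSO, and a log2 difference of GSK591 from DMSO of 0.15 against 0.42 in FPKM. The COL4A6 locus overlaps ATG4A, whose log2 changes were 0.34 in MS023 (edgeR adjusted p = 0.00174) and 0.12 in GSK591 (edgeR adjusted p = 0.185).

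**Figure D3:**
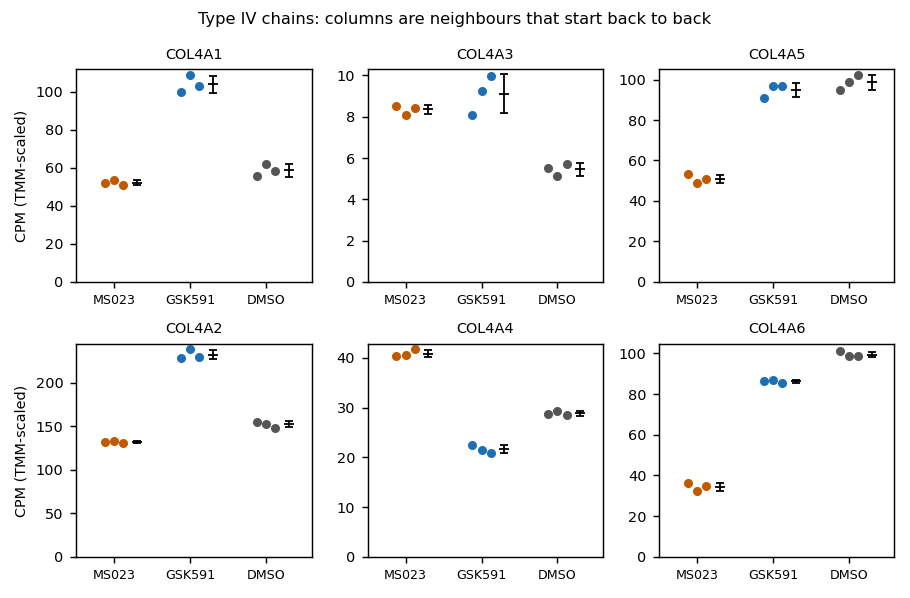
CPM of the 6 type IV chains by library (points) with mean and SD (bars), each column holding 2 neighbouring genes that start back to back. COL4A1 and COL4A2 share a pattern with GSK591 highest, COL4A3 and COL4A4 differ in GSK591, and COL4A5 and COL4A6 are both lowest in MS023.

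Among fibrillar chains, type V was the most abundant. COL5A2 (ENSG00000204262, hg19 chr2:189896622-190044605), a chain that helps to set the width of type I fibrils, stood at 771, 728 and 730.5 CPM in the MS023 libraries, 635, 655 and 640.1 CPM in the GSK591 libraries, and 949, 993 and 991 CPM in the DMSO libraries. Both inhibitor groups lay below DMSO, GSK591 lowest. Its log2 change was -0.40 ± 0.03 (edgeR adjusted p = 1.46e-07) in MS023 and -0.60 ± 0.03 (edgeR adjusted p = 7.41e-10) in GSK591. Its usual partner COL5A1 (ENSG00000130635, hg19 chr9:137533620-137736686) had 37.2, 39.4 and 38.2 CPM in the MS023 libraries, 106, 104 and 101 CPM in the GSK591 libraries, and 75.0, 75.7 and 82.2 CPM in the DMSO libraries. Here MS023 was lowest and GSK591 highest, with log2 changes of -1.02 ± 0.04 (edgeR adjusted p = 1.18e-10) and 0.41 ± 0.04 (edgeR adjusted p = 6.78e-07). In FPKM, COL5A1 stood to COL5A2 at 0.0404, 0.0469 and 0.0473 in MS023, 0.148, 0.140 and 0.141 in GSK591 and 0.0719, 0.0645 and 0.0727 in DMSO. COL5A1 was thus the scarcer chain in every library, and its share relative to COL5A2 did not overlap between any pair of groups (exact permutation p = 0.1 each, the smallest possible). COL5A3, the less widespread type V chain, had 1.84 ± 0.0837 CPM in MS023, 2.61 ± 0.135 CPM in GSK591 and 2.09 ± 0.402 CPM in DMSO (SD, n = 3). It did not pass against DMSO in MS023 (edgeR adjusted p = 0.289) or GSK591 (edgeR adjusted p = 0.0867), though it was called higher in GSK591 without DMSO replicate 2 (edgeR adjusted p = 0.00941), and it was lower in MS023 than in GSK591 (log2 change -0.50 ± 0.15, edgeR adjusted p = 0.00791), which FPKM without a filter did not call (limma adjusted p = 0.0804). Its libraries were 1.89, 1.87 and 1.74 CPM in the MS023 libraries, 2.76, 2.56 and 2.51 CPM in the GSK591 libraries, and 1.84, 2.56 and 1.88 CPM in the DMSO libraries, a spread of low values in which DMSO replicate 2 lay highest of its group.

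COL1A1 (ENSG00000108821, hg19 chr17:48260650-48278993), a chain of the main collagen of bone and skin, had 23.8, 26.6 and 24.7 CPM in the MS023 libraries, 8.08, 6.84 and 6.61 CPM in the GSK591 libraries, and 11.8, 10.8 and 12.4 CPM in the DMSO libraries. The 3 groups did not overlap. It rose in MS023 (log2 change 1.10 ± 0.08, edgeR adjusted p = 2.14e-08) and fell in GSK591 (log2 change -0.71 ± 0.08, edgeR adjusted p = 3.37e-06), and MS023 exceeded GSK591 by 3.51-fold. Its usual partner COL1A2 had 0 counts in every MS023 and GSK591 library and 2 counts in all in DMSO, both in replicate 3, so no ratio of the type I chains could be formed. COL3A1, a chain of vessel and skin fibrils whose gene neighbours COL5A2, had 3.18, 3.41 and 3.38 CPM in the MS023 libraries, 2.05, 1.90 and 1.83 CPM in the GSK591 libraries, and 3.88, 3.53 and 4.26 CPM in the DMSO libraries. It fell in GSK591 (log2 change -1.02 ± 0.12, edgeR adjusted p = 3.23e-06), and did not pass in MS023, at -0.23 ± 0.11 (edgeR adjusted p = 0.0947). COL2A1, the cartilage chain, failed the filter with 13, 17 and 8 counts in MS023, GSK591 and DMSO.

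Both type XI chain genes, known from cartilage fibrils, changed, in opposite senses in MS023. COL11A1 (ENSG00000060718, hg19 chr1:103342023-103574052) had 7.73, 8.22 and 7.43 CPM in the MS023 libraries, 15.7, 18.0 and 15.3 CPM in the GSK591 libraries, and 21.8, 20.8 and 20.5 CPM in the DMSO libraries. MS023 was lowest, GSK591 between, and the log2 changes were -1.43 ± 0.07 (edgeR adjusted p = 6.57e-10) and -0.36 ± 0.07 (edgeR adjusted p = 0.000241). COL11A2 had 4.55, 3.96 and 4.91 CPM in the MS023 libraries, 3.26, 2.96 and 2.88 CPM in the GSK591 libraries, and 1.28, 0.932 and 1.38 CPM in the DMSO libraries. It was above DMSO in all inhibitor libraries, with log2 changes of 1.91 ± 0.15 (edgeR adjusted p = 1.03e-07) in MS023 and 1.34 ± 0.16 (edgeR adjusted p = 3.83e-06) in GSK591. COL27A1 (ENSG00000196739, hg19 chr9:116917840-117074791), a fibrillar chain of cartilage, had 53.7, 52.9 and 51.5 CPM in the MS023 libraries, 65.1, 68.6 and 60.7 CPM in the GSK591 libraries, and 33.6, 33.9 and 38.7 CPM in the DMSO libraries. It rose in both groups, with log2 changes of 0.57 ± 0.06 (edgeR adjusted p = 1.02e-06) in MS023 and 0.87 ± 0.06 (edgeR adjusted p = 5.80e-09) in GSK591, and was lower in MS023 than in GSK591 (log2 change -0.30 ± 0.06, edgeR adjusted p = 0.000248), a call that FPKM did not make (limma adjusted p = 0.109). COL24A1, with 106, 49 and 68 counts in MS023, GSK591 and DMSO, did not pass against DMSO and was higher in MS023 than in GSK591 (log2 change 0.98 ± 0.26, edgeR adjusted p = 0.00344), a call that FPKM without a filter did not make (limma adjusted p = 0.0586). In all, 3 fibrillar chains were called higher and 3 lower in MS023 and 3 higher and 4 lower in GSK591, of 9 tested, which lies near the 25.1% and 25.9% of all genes in MS023 and the 30.1% and 32.4% in GSK591.

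**Figure D4:**
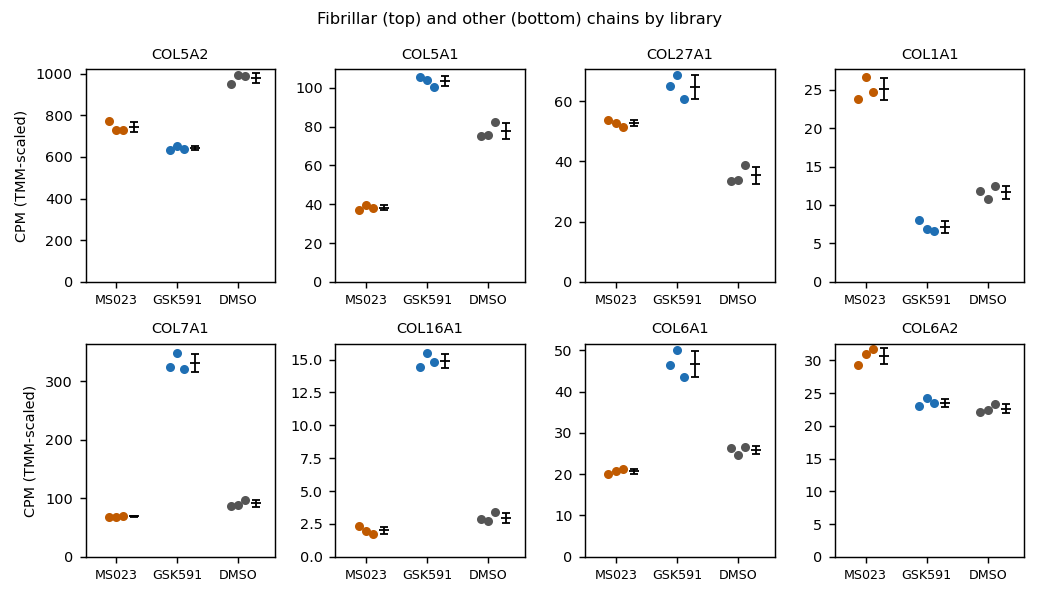
CPM of 4 fibrillar chains (top) and 4 other chains (bottom) by library (points), with mean and SD (bars), on axes that start at 0. COL5A1 and COL6A1 are highest in GSK591 and lowest in MS023, COL1A1 is highest in MS023, and COL7A1 and COL16A1 stand out in GSK591.

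COL7A1 (ENSG00000114270, hg19 chr3:48601506-48632700) codes for the chain of anchoring fibrils, which tie the epithelial basement membrane to the tissue below. It had 67.9, 68.4 and 70.4 CPM in the MS023 libraries, 324, 349 and 320.2 CPM in the GSK591 libraries, and 87.2, 88.7 and 97.3 CPM in the DMSO libraries. The GSK591 libraries stood far above the rest, 3.63-fold over DMSO, and the MS023 libraries stood below all DMSO libraries. Its log2 change was -0.40 ± 0.05 (edgeR adjusted p = 6.15e-06) in MS023 and 1.86 ± 0.05 (edgeR adjusted p = 1.03e-12) in GSK591, and the difference of MS023 from GSK591 was -2.26 ± 0.05 (edgeR adjusted p = 3.19e-14). The MS023 decrease lost its call in FPKM (limma adjusted p = 0.0744). COL16A1 (ENSG00000084636, hg19 chr1:32117848-32169920), a fibril-associated chain of the FACIT group, had 2.32, 1.95 and 1.74 CPM in the MS023 libraries, 14.4, 15.5 and 14.8 CPM in the GSK591 libraries, and 2.85, 2.69 and 3.39 CPM in the DMSO libraries. It rose in GSK591 4.99-fold (log2 change 2.32 ± 0.10, edgeR adjusted p = 7.83e-11), and fell in MS023 (log2 change -0.56 ± 0.13, edgeR adjusted p = 0.00175), which FPKM did not call (limma adjusted p = 0.300). DMSO replicate 2 read 1.78 FPKM of COL16A1 against 0.699 and 0.436 FPKM in the other DMSO libraries, while its CPM lay below both. The 250 bases before the starts of these 2 genes are shown, with the same motifs in capitals, because COL16A1 has the largest GSK591 increase among members with a mean of at least 1 CPM and COL7A1 the highest FPKM among members at least 2-fold higher in GSK591: COL7A1 at chr3:48595330-48595579 and COL16A1 at chr1:31704018-31704267 (GRCh38.p14, minus strand, RefSeq).
COL7A1: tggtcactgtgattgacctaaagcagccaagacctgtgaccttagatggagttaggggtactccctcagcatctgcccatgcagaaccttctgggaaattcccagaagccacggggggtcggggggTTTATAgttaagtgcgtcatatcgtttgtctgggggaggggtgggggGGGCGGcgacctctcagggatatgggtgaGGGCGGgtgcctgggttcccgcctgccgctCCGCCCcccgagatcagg
COL16A1: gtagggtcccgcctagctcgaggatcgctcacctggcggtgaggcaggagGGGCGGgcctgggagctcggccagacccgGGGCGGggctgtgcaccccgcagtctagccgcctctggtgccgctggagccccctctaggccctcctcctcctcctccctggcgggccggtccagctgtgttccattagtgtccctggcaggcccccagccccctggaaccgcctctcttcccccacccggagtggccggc

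The COL7A1 stretch held 3 GC boxes and 1 TATA box and the COL16A1 stretch 2 GC boxes. No feature of these letters was set apart from other promoters by a test.

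Other FACIT chains, which sit on fibril surfaces, followed COL16A1 only in part. COL12A1 (ENSG00000111799, hg19 chr6:75794042-75915767) had 9.37, 8.98 and 8.81 CPM in the MS023 libraries, 24.7, 26.3 and 25.5 CPM in the GSK591 libraries, and 12.9, 11.9 and 12.3 CPM in the DMSO libraries. It rose in GSK591 (log2 change 1.05 ± 0.05, edgeR adjusted p = 5.46e-10) and fell in MS023 (log2 change -0.45 ± 0.06, edgeR adjusted p = 1.81e-05), a fall not called in FPKM (limma adjusted p = 0.1004). COL21A1 had 1.54, 1.30 and 1.27 CPM in the MS023 libraries, 3.88, 3.06 and 3.64 CPM in the GSK591 libraries, and 3.72, 3.21 and 2.79 CPM in the DMSO libraries. Against DMSO only its fall in MS023 passed (log2 change -1.22 ± 0.16, edgeR adjusted p = 1.37e-05), and its GSK591 value was 0.13 ± 0.14 (edgeR adjusted p = 0.433). COL22A1 had 0.312, 0.286 and 0.282 CPM in the MS023 libraries, 2.33, 2.70 and 2.46 CPM in the GSK591 libraries, and 0.844, 0.455 and 0.497 CPM in the DMSO libraries. It was higher in GSK591 (log2 change 2.11 ± 0.21, edgeR adjusted p = 5.10e-07), and lower in MS023 (log2 change -0.96 ± 0.29, edgeR adjusted p = 0.0121), a call that ended without DMSO replicate 1 (edgeR adjusted p = 0.0653). Both calls ended in FPKM without a filter (limma adjusted p = 0.469 in MS023 and 0.174 in GSK591). COL20A1 had 27, 220 and 79 counts in MS023, GSK591 and DMSO, with log2 changes of -1.63 ± 0.30 (edgeR adjusted p = 0.000347) in MS023 and 1.52 ± 0.21 (edgeR adjusted p = 1.48e-05) in GSK591, the MS023 call ending in FPKM without a filter (limma adjusted p = 0.340). COL9A3, a chain of cartilage type IX collagen, ran the other way, with 1.48, 1.56 and 1.90 CPM in the MS023 libraries, 0.311, 0.588 and 0.545 CPM in the GSK591 libraries, and 1.38, 1.41 and 1.53 CPM in the DMSO libraries. It fell in GSK591 (log2 change -1.54 ± 0.23, edgeR adjusted p = 2.97e-05) and did not pass in MS023 (edgeR adjusted p = 0.414); its locus overlaps TCFL5 by 45 bases. COL9A2 had 46, 55 and 23 counts and was called higher in GSK591 (log2 change 1.30 ± 0.40, edgeR adjusted p = 0.0105), though not without DMSO replicate 2 (edgeR adjusted p = 0.0539) or GSK591 replicate 1 (edgeR adjusted p = 0.0533), nor in FPKM without a filter (limma adjusted p = 0.257).

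Type VI chains form beaded filaments from COL6A1, COL6A2 and a larger chain such as COL6A3. COL6A1 (ENSG00000142156, hg19 chr21:47401651-47424964) had 20.1, 20.7 and 21.3 CPM in the MS023 libraries, 46.6, 49.97 and 43.6 CPM in the GSK591 libraries, and 26.3, 24.7 and 26.7 CPM in the DMSO libraries. It rose in GSK591 (log2 change 0.85 ± 0.05, edgeR adjusted p = 3.59e-09), and fell in MS023 (log2 change -0.32 ± 0.05, edgeR adjusted p = 0.000184), where FPKM without a filter made no call (limma adjusted p = 0.0543). COL6A2 (ENSG00000142173, hg19 chr21:47518011-47552763), its neighbour on chromosome 21, had 29.3, 30.97 and 31.8 CPM in the MS023 libraries, 23.0, 24.2 and 23.4 CPM in the GSK591 libraries, and 22.0, 22.4 and 23.4 CPM in the DMSO libraries. It rose in MS023 (log2 change 0.44 ± 0.05, edgeR adjusted p = 2.45e-06), and its GSK591 value of 0.06 ± 0.05 (edgeR adjusted p = 0.316) did not pass. In FPKM, COL6A1 stood to COL6A2 at 0.551, 0.535 and 0.526 in MS023, 1.61, 1.55 and 1.55 in GSK591 and 0.973, 0.879 and 0.896 in DMSO. In FPKM COL6A1 exceeded its partner in GSK591 alone, whereas counts per kilobase put it above COL6A2 in DMSO too (0.681, 1.999 and 1.15 in MS023, GSK591 and DMSO). No group overlapped another in either measure (exact permutation p = 0.1 for each pair of groups, the smallest possible). COL6A3 was near the limit of detection, with 10, 22 and 48 counts in MS023, GSK591 and DMSO. It was called lower in MS023 (log2 change -2.32 ± 0.44, edgeR adjusted p = 0.000517), and in GSK591 (log2 change -1.08 ± 0.38, edgeR adjusted p = 0.0229). All 3 DMSO libraries cleared the low-count filter, but only 1 GSK591 library and no MS023 library did. COL6A3 thus passed through the group where it is highest, and its calls are descriptions. The GSK591 call ended without DMSO replicate 1 (edgeR adjusted p = 0.0877), GSK591 replicate 1 (0.0566) or GSK591 replicate 3 (0.111) and in DESeq2 (0.0813). In FPKM without a filter neither call was made (limma adjusted p = 0.199 in MS023 and 0.229 in GSK591). COL6A6 had 22, 17 and 20 counts and failed the filter.

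COL18A1 (ENSG00000182871, hg19 chr21:46825052-46933634), a basement membrane proteoglycan whose C-terminal piece is endostatin, led the other chains in FPKM and had 186, 187 and 198 CPM in the MS023 libraries, 251, 253 and 259.5 CPM in the GSK591 libraries, and 215, 221 and 222 CPM in the DMSO libraries. It was lower in MS023 (log2 change -0.20 ± 0.04, edgeR adjusted p = 0.000412), and higher in GSK591 (log2 change 0.21 ± 0.04, edgeR adjusted p = 0.000168). Its relative COL15A1 failed the filter, with 2, 26 and 12 counts in MS023, GSK591 and DMSO. COL18A1 overlaps SLC19A1 and its own antisense genes, of which COL18A1-AS1 had 84, 197 and 93 counts in the same groups. COL17A1, the transmembrane chain of hemidesmosomes, had 0.605, 0.468 and 0.494 CPM in the MS023 libraries, 3.67, 3.20 and 4.21 CPM in the GSK591 libraries, and 0.938, 1.496 and 1.45 CPM in the DMSO libraries. GSK591 libraries lay above and MS023 libraries below all DMSO libraries, with log2 changes of -1.32 ± 0.23 (edgeR adjusted p = 0.000242) in MS023 and 1.48 ± 0.17 (edgeR adjusted p = 3.29e-06) in GSK591. Both calls ended in FPKM without a filter (limma adjusted p = 0.0698 in MS023 and 0.138 in GSK591). COL13A1, also transmembrane, had 14, 46 and 15 counts and was called higher in GSK591 (log2 change 1.63 ± 0.36, edgeR adjusted p = 0.00106), though not in FPKM without a filter (limma adjusted p = 0.630). All 3 GSK591 libraries cleared the low-count filter and no MS023 or DMSO library did. COL13A1 was thus tested only through the group where it is high, and its call is a description. COL26A1 (ENSG00000160963, hg19 chr7:101006101-101202304) had 10.7, 12.5 and 12.1 CPM in the MS023 libraries, 4.72, 4.37 and 4.49 CPM in the GSK591 libraries, and 5.88, 6.004 and 5.60 CPM in the DMSO libraries. It rose in MS023 (log2 change 1.02 ± 0.08, edgeR adjusted p = 6.72e-08), and fell in GSK591 (log2 change -0.37 ± 0.09, edgeR adjusted p = 0.00191). COL28A1 had 45, 118 and 17 counts, and its libraries in both inhibitor groups lay above DMSO, with log2 changes of 1.30 ± 0.36 (edgeR adjusted p = 0.00684) in MS023 and 2.81 ± 0.30 (edgeR adjusted p = 1.25e-06) in GSK591. The MS023 call ended in FPKM without a filter (limma adjusted p = 0.661). The short-chain members COL8A2 (82, 65 and 48 counts) and COL10A1 (76, 92 and 73 counts) were called in none of the 3 comparisons, and COL10A1 lies within NT5DC1, a gene with group means of 39.8 to 56.0 CPM.

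COL1A2, COL2A1, COL6A6 and COL15A1, given above, and the members below failed the filter. Members that failed it stayed under 60 counts over all 9 libraries. COL6A5 and COL19A1 had 0 of 377643313 counts, which allows up to 0.00794 CPM (3 counts, counting error only). COL8A1 had 1, 2 and 0 counts in MS023, GSK591 and DMSO, COL9A1 6, 0 and 1 counts, COL25A1 4, 1 and 3 counts, COL23A1 7, 11 and 2 counts and COL14A1 19, 19 and 9 counts. The highest total among untested members was 59 counts (COL6A6) and the lowest among tested members 75 counts (COL13A1). These members had no test in the fit reported here. Most hold too few counts to compare, but COL15A1, singled out after its values were seen, had 1, 1 and 0 counts in the MS023 libraries, 10, 7 and 9 in the GSK591 libraries and 4, 4 and 4 in the DMSO libraries, groups that do not overlap.

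Collagen RNA was next set beside the genes that fold, process and bind collagen. Over all genes tested, 25.1% were called higher and 25.9% lower in MS023, and 30.1% and 32.4% in GSK591, and the counts of each list are read against these shares. Some listed genes had a mean above the filter cutoff of 0.236 CPM in a single group, so the counts describe the genes that passed. Of 23 folding and modification genes, 6 were called higher and 9 lower in MS023 and 6 higher and 13 lower in GSK591 (median log2 change -0.01 and -0.13). The shares called higher lie near the 25.1% and 30.1% of all genes. SPARC, a secreted collagen-binding chaperone, was highest in GSK591, at 8.99 ± 0.173 CPM in MS023, 62.4 ± 4.01 CPM in GSK591 and 22.2 ± 0.952 CPM in DMSO. Its log2 change was -1.30 ± 0.06 (edgeR adjusted p = 2.06e-10) in MS023 and 1.49 ± 0.05 (edgeR adjusted p = 1.08e-11) in GSK591. SERPINH1, the collagen chaperone HSP47, rose in both groups, with log2 changes of 0.30 ± 0.06 (edgeR adjusted p = 0.00137) in MS023 and 0.65 ± 0.06 (edgeR adjusted p = 5.59e-07) in GSK591. The prolyl hydroxylase subunits P4HA1 and P4HA3 fell in both. The log2 change of P4HA1 was -0.57 ± 0.05 (edgeR adjusted p = 3.03e-07) in MS023 and -1.02 ± 0.05 (edgeR adjusted p = 3.53e-10) in GSK591. That of P4HA3 was -2.02 ± 0.05 (edgeR adjusted p = 7.77e-13) in MS023 and -0.58 ± 0.05 (edgeR adjusted p = 9.63e-08) in GSK591. The lysyl hydroxylase PLOD1 fell in GSK591 (log2 change -0.59 ± 0.04, edgeR adjusted p = 2.59e-08) and PLOD2 in MS023 (log2 change -0.61 ± 0.05, edgeR adjusted p = 1.99e-07), while PLOD2 rose in GSK591 (log2 change 0.28 ± 0.05, edgeR adjusted p = 0.000241). LEPRE1, a prolyl 3-hydroxylase, rose in MS023 and fell in GSK591, with log2 changes of 0.35 ± 0.05 (edgeR adjusted p = 3.23e-05) and -0.37 ± 0.05 (edgeR adjusted p = 1.22e-05). The collagen galactosyltransferase COLGALT1 did the same, with 0.18 ± 0.04 (edgeR adjusted p = 0.00160) in MS023 and -0.44 ± 0.04 (edgeR adjusted p = 2.88e-07) in GSK591. COLGALT2 (log2 change 1.22 ± 0.32, edgeR adjusted p = 0.00396) and MIA2 (log2 change 0.78 ± 0.31, edgeR adjusted p = 0.0419) rose in GSK591.

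Of 13 genes that trim or crosslink collagen outside the cell, 2 were called higher and 4 lower in MS023 and 9 higher and none lower in GSK591 (medians 0.03 and 0.59), against 25.1% and 25.9% of all genes in MS023 and 30.1% and 32.4% in GSK591. The MS023 counts lie near those shares. LOXL2, a lysyl oxidase that acts on type IV collagen, had 29.6 ± 1.46 CPM in MS023, 139 ± 2.62 CPM in GSK591 and 89.7 ± 3.39 CPM in DMSO. It fell in MS023 (log2 change -1.60 ± 0.04, edgeR adjusted p = 7.62e-13) and rose in GSK591 (log2 change 0.64 ± 0.04, edgeR adjusted p = 4.32e-09). The procollagen C-proteinase enhancer PCOLCE2 fell in MS023 (log2 change -1.24 ± 0.07, edgeR adjusted p = 1.91e-09), as did LOX, the founding lysyl oxidase (log2 change -0.71 ± 0.16, edgeR adjusted p = 0.00183). LOXL1 rose in MS023 (log2 change 1.12 ± 0.26, edgeR adjusted p = 0.00227), as did PXDN, which crosslinks type IV collagen (log2 change 0.18 ± 0.06, edgeR adjusted p = 0.0121). In GSK591 the largest increases by log2 change were those of ADAMTS14 (log2 change 2.70 ± 0.58, edgeR adjusted p = 0.000905), with 40 counts against 6 in DMSO, LOXL4 (log2 change 1.37 ± 0.11, edgeR adjusted p = 7.32e-08) and LOXL1 (log2 change 1.28 ± 0.26, edgeR adjusted p = 0.000520). ADAMTS14 had means of 0.153, 0.333 and 0.0529 CPM in MS023, GSK591 and DMSO. Only its GSK591 mean lay above the filter cutoff of 0.236 CPM, so its call is a description.

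Other basement membrane proteins had 3 of 16 members called higher and 6 lower in MS023, and 12 higher and 1 lower in GSK591 (medians -0.16 and 0.50), against 25.1% and 25.9% of all genes in MS023 and 30.1% and 32.4% in GSK591. The laminin chain LAMA4 had 0.538 ± 0.0832 CPM in MS023, 7.63 ± 1.16 CPM in GSK591 and 2.65 ± 0.461 CPM in DMSO. Its log2 change was -2.30 ± 0.20 (edgeR adjusted p = 3.31e-07) in MS023 and 1.51 ± 0.14 (edgeR adjusted p = 2.36e-07) in GSK591. The epithelial laminin chain LAMA3 had log2 changes of -0.80 ± 0.04 (edgeR adjusted p = 3.26e-10) in MS023 and 0.82 ± 0.04 (edgeR adjusted p = 1.06e-10) in GSK591. LAMA2 was called higher in GSK591 (log2 change 1.77 ± 0.33, edgeR adjusted p = 0.000294), with 107 counts against 32 in DMSO. LAMA2 means were 0.159 ± 0.0987, 0.886 ± 0.110 and 0.266 ± 0.0682 CPM in MS023, GSK591 and DMSO (SD). Of these only the GSK591 mean lay clear of the filter cutoff of 0.236 CPM, so the LAMA2 call is a description. LAMC3 (log2 change 0.89 ± 0.07, edgeR adjusted p = 1.75e-07), NID2 (log2 change 0.74 ± 0.11, edgeR adjusted p = 5.33e-05) and FRAS1 (log2 change 0.36 ± 0.06, edgeR adjusted p = 0.000114) rose in MS023. AGRN, the proteoglycan agrin, was the 1 member called lower in GSK591 (log2 change -0.74 ± 0.06, edgeR adjusted p = 1.04e-07).

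Collagen receptors had 2 of 9 members called higher and 4 lower in MS023 and 3 higher and 3 lower in GSK591 (medians -0.42 and 0.35). Those GSK591 counts lie near the 30.1% and 32.4% of all genes, and the 2 higher in MS023 near 25.1%. The collagen-binding integrin chain ITGA2 had log2 changes of -0.73 ± 0.03 (edgeR adjusted p = 3.71e-10) in MS023 and 0.72 ± 0.03 (edgeR adjusted p = 1.59e-10) in GSK591. Those of ITGA11, a receptor of fibrillar collagen, were -0.83 ± 0.09 (edgeR adjusted p = 2.61e-06) and 0.75 ± 0.08 (edgeR adjusted p = 1.41e-06). ITGA1 was lower in both, with -0.62 ± 0.06 (edgeR adjusted p = 7.18e-07) in MS023 and -1.06 ± 0.06 (edgeR adjusted p = 1.78e-09) in GSK591, and so was ITGB1, the common partner chain of these integrins, with -0.42 ± 0.03 (edgeR adjusted p = 4.36e-08) and -0.29 ± 0.03 (edgeR adjusted p = 1.27e-06). The receptor tyrosine kinase DDR1 rose in both, with 0.32 ± 0.05 (edgeR adjusted p = 8.43e-05) and 0.43 ± 0.05 (edgeR adjusted p = 2.54e-06). ITGA10 rose in MS023 (log2 change 0.42 ± 0.17, edgeR adjusted p = 0.0475), and the collagen uptake receptor MRC2 fell in GSK591 (log2 change -0.54 ± 0.04, edgeR adjusted p = 3.90e-08). Of 7 fibril-associated proteins tested, 2 were called higher and 3 lower in MS023 and 6 higher and none lower in GSK591 (medians 0.02 and 0.85), against 25.1% and 25.9% of all genes in MS023 and 30.1% and 32.4% in GSK591. The 2 higher in MS023 lie near the share of all genes. FBN1, the microfibril protein fibrillin, had 11.1 ± 0.757 CPM in MS023, 66.6 ± 8.49 CPM in GSK591 and 13.9 ± 1.57 CPM in DMSO, with log2 changes of -0.33 ± 0.10 (edgeR adjusted p = 0.0115) in MS023 and 2.26 ± 0.09 (edgeR adjusted p = 4.47e-11) in GSK591. TNC, which codes for tenascin C, was called higher in GSK591 (log2 change 2.50 ± 0.38, edgeR adjusted p = 4.24e-05), with 101 counts against 18 in DMSO. TNC means were 0.241 ± 0.101, 0.849 ± 0.0988 and 0.159 ± 0.107 CPM in MS023, GSK591 and DMSO (SD). Of these only the GSK591 mean lay clear of the filter cutoff of 0.236 CPM, so the TNC call is a description. LUM, the fibril-binding proteoglycan lumican and also one of the fibroblast markers, had log2 changes of -0.56 ± 0.20 (edgeR adjusted p = 0.0340) in MS023 and 0.85 ± 0.18 (edgeR adjusted p = 0.000831) in GSK591. In MS023 the fibril-binding proteoglycan FMOD rose (log2 change 2.94 ± 0.38, edgeR adjusted p = 1.51e-05), with 108 counts against 13 in DMSO, as did THBS1 (log2 change 0.69 ± 0.04, edgeR adjusted p = 3.21e-09), while VCAN fell (log2 change -0.43 ± 0.04, edgeR adjusted p = 9.28e-07). FMOD had means of 0.835, 0.196 and 0.107 CPM in MS023, GSK591 and DMSO. Only its MS023 mean lay above the filter cutoff of 0.236 CPM, so its call is a description. Summed fibroblast markers, given above and mostly THY1, were higher in the same GSK591 libraries as these matrix genes, and their part in the result was not tested.

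**Figure D5:**
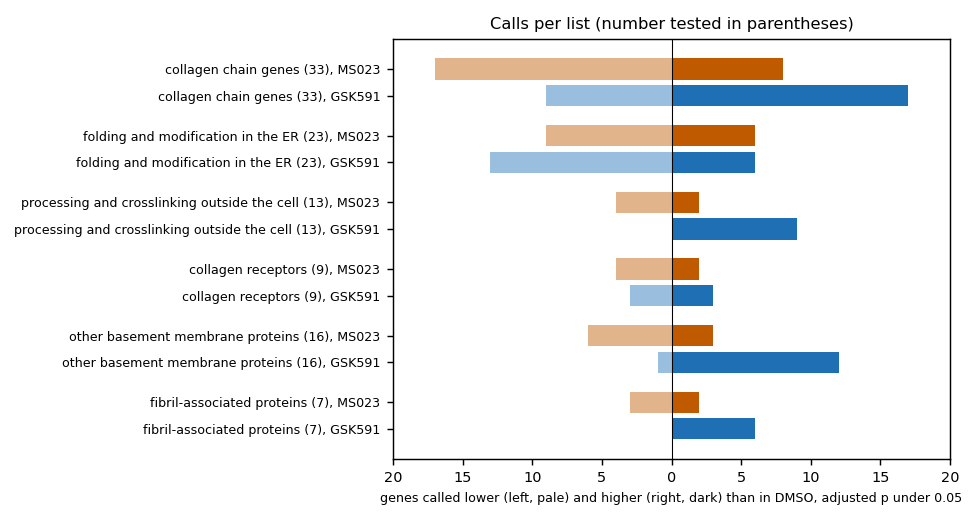
Number of genes called higher (right, dark) and lower (left, pale) than in DMSO for the collagen chains and 5 lists of their partners, in MS023 (orange) and GSK591 (blue), with the number tested in parentheses. In GSK591, calls of processing enzymes, basement membrane proteins and fibril-associated proteins lie mostly or all on the higher side, whereas folding genes lie mostly on the lower side.

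Of the 33 members, 31 differed among the 3 groups in an F-test (edgeR adjusted p under 0.05), against 78.1% of all genes tested, the exceptions being COL8A2 and COL10A1. At least 2-fold, 4 members were higher and 7 lower in MS023 (4.26% and 3.94% of all genes), and 10 higher and 3 lower in GSK591 (9.11% and 2.68%). Between the inhibitors, 3 were higher and 14 lower in MS023 than in GSK591 at that size (4.99% and 10.7%). Of the 14 lower ones, COL20A1 (-3.16 ± 0.25), COL22A1 (-3.08 ± 0.23), COL16A1 (-2.88 ± 0.10) and COL17A1 (-2.80 ± 0.20) differed most on the log2 scale, with edgeR adjusted p of at most 4.05e-08.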

How the data were processed

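RNA of A549 cells was sequenced in 9 libraries, 3 each with MS023, GSK591 and DMSO. The authors deposited a table of raw counts per gene and an FPKM table per sample. Per the submitters' processing notes, cutadapt, STAR, featureCounts and DESeq2 were used with hg19, without versions, and the strand setting of the counts is not given in the sources used here. FPKM in the deposited tables were made by the authors and are relative to length and depth. FPKM rows that share an identifier were summed, and members were matched to counts by identifier. Library totals ran from 31398075 to 51244525 counts. PCR reads are not independent molecules, so floors cover counting error only.

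Counts were tested in edgeR 4.0.16 (R 4.3.3) by a quasi-likelihood fit with TMM scaling, group as the term and all 9 libraries. Its filter (minimum count 10, minimum total 15) kept 18292 genes, and adjustment was Benjamini-Hochberg with a threshold of 0.05. The standard error is the size of the log2 change divided by the square root of the F statistic. Chain ratios were taken within each library and compared by exact two-sided permutation tests. Counts per kilobase used exon lengths of GENCODE 29. Promoter sequences came from RefSeq (GRCh38.p14), and 32 of 44 members matched. Alternatives were other scalings and filters, DESeq2 1.42.0, limma 3.58.1 on log2 FPKM, the replicate number as a block, single libraries left out and the 6 libraries compared. The code was tested on simulated data.

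All members are accounted for. Members with a mean of at least 1 CPM have a value per library, the others counts. Of each partner list, up to 3 genes each way were named by size of change among those called. Some genes of the lists are not reported here. Members and lists were chosen with earlier results of these data known.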

Additional observations from a re-analysis of the deposited data

How the results depend on the processing

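Scaling by DESeq2 size factors or library totals, other filters on counts, DESeq2, a threshold of 0.01, the 6 libraries compared and single libraries left out kept each count of members called within 1.5 times of its value. With each library left out in turn, members called higher numbered 8 to 8 and lower 16 to 17 in MS023, 16 to 17 and 8 to 9 in GSK591, and 9 to 9 and 19 to 20 between the inhibitors, with 8012 to 9297, 10588 to 11572 and 11211 to 12364 calls over all genes. With the replicate number as a block the members called stayed at 8 and 17, 17 and 9, and 9 and 20, and calls over all genes were 8855, 11145 and 11642 in that order. Libraries with the same number did not deviate together (r from -0.43 to 0.26), so the numbers are not taken to pair them. In limma on log2 of FPKM with a minimum of 1 FPKM in 3 libraries, 13593 genes and 18 members could be tested. Both pseudocounts (1 and 0.1) gave 5 members higher and 8 lower in MS023, and 10 higher and 6 lower in GSK591. Between the inhibitors both gave 5 higher and 12 lower. Of the 13593 genes, calls were then 5726 and 5612 in MS023, 8038 and 7960 in GSK591, and 8342 and 8205 between the inhibitors. With the pseudocount of 1 the MS023 calls were 2833 higher and 2893 lower. Without a filter the calls over all genes in MS023 were 6053, with 8 members lower. Fewer genes were tested in those FPKM fits with the filter, and the cause of the drop without it was not tested. FPKM with the filter moved the median of all genes in GSK591 by -0.10 with a pseudocount of 1 and by -0.12 with 0.1. Between MS023 and GSK591 it moved by 0.10 with the pseudocount of 0.1.

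Values that changed sign were not called. COL4A5 in GSK591 was 0.00292 with library totals and 0.18, 0.19 and 0.18 in the FPKM fits, and COL21A1 was -0.0313 in FPKM without a filter. COL10A1 in MS023 was 0.0115 with library totals, -0.337 to 0.263 with a library left out, 0.0829 without DMSO replicate 1 and GSK591 replicate 3 together and 0.0242 in FPKM without a filter. COL13A1 in MS023 was -0.326 to 0.0241 with a library left out. As log2 differences of ratios from counts per kilobase, COL4A3 to COL4A4 was 1.15 for GSK591 against DMSO and -1.04 for MS023 against GSK591. COL4A5 to COL4A6 was 0.15 and 0.43 in the same comparisons, and COL6A3 to COL6A1 was -2.39 for MS023 against DMSO and -0.41 for MS023 against GSK591, where FPKM gave 0.59. The cause of these shifts was not tested. The call of COL6A3 between MS023 and GSK591 ended without any of 7 single libraries (edgeR adjusted p = 0.0508 to 0.170), being all but MS023 replicate 1 and GSK591 replicate 3, in DESeq2 (adjusted p = 0.0890), without a count filter (edgeR adjusted p = 0.0908) and in FPKM without a filter (limma adjusted p = 0.868). Depth limits COL6A3, COL13A1, COL9A2 and the 11 untested members most.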

Other observations

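Antisense genes within collagen loci held few reads. COL18A1-AS1 had 84, 197 and 93 counts and COL18A1-AS2 80, 145 and 64 counts in MS023, GSK591 and DMSO, and both were called higher in GSK591 (log2 changes of 1.12 with edgeR adjusted p = 0.000201, and 1.22 with edgeR adjusted p = 0.000446). COL4A2-AS1 had 9, 17 and 7 counts, COL4A2-AS2 9, 20 and 9 counts and COL5A1-AS1 5, 23 and 2 counts, too few to be tested. Without the strand setting, reads of these genes and of their host genes cannot be told apart.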
